A study of Mus musculus with 6 samples.

Results

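The genes described here encode the components, regulators and receptors of complement, and were chosen by name. The list holds 38 symbols, of which 35 were measured by a probe set that the array annotation gives to that gene alone, out of 22180 genes measured in that way. The other 3 were C3, Cfd and Masp2. The Masp2 probe set is shared with a second gene in the annotation, and C3 and Cfd were not analysed here because they had no probe set under their own symbol. Each of the 35 measured genes had a single such probe set, so no choice between probe sets was needed.

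The samples were livers of male C57BL/6N mice aged 2 months, with 3 knockout and 3 control samples and 1 Affymetrix whole-transcript array each. The knockout animals had a knockout of cGK1, the cGMP-dependent protein kinase 1 whose gene is Prkg1, and carried a smooth muscle rescue of it. The driver of that rescue and the deleted part of Prkg1 are not given in the sources used here. The animals of the other group are called wild type in the sample labels and control mice in the series description. Whether the replicates came from different animals is not stated, and the p-values therefore reflect the spread between these 6 samples, part of which may be technical.

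Complement is a cascade of plasma proteins that marks surfaces for uptake by phagocytes and can end in a membrane pore. It is started by C1q bound to antibody, by lectins such as the mannose-binding lectins bound to sugars, or by spontaneous turnover of C3. These starts converge on convertases, protease complexes built from C2 and C4 or from C3 and factor B, and the terminal components C5 to C9 then assemble the pore. Hepatocytes secrete most of these proteins into plasma, and several of them are acute phase proteins. C1q, properdin and the receptors for complement fragments are made mainly by macrophages and other leukocytes, which in the liver are mostly Kupffer cells. The measured genes were therefore separated by their known main source into 19 liver-secreted genes, 8 macrophage-made genes and 8 others.

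Values are log2 RMA expression, n = 3 per group throughout, and each log2 difference is the knockout minus the control mean, with its standard error from limma. Array medians lay between 3.11 and 3.16. Pairs of control arrays correlated across genes at 0.989 to 0.990, and pairs of knockout arrays at 0.978 to 0.983. Knockout arrays correlated with control arrays at 0.978 to 0.983 as well. Knockout replicates 1 and 2 correlated at 0.983 with each other and at 0.978 to 0.981 with the controls. Knockout replicate 3 correlated at 0.978 and 0.979 with these 2 arrays and at 0.981 to 0.983 with the controls. Over all genes it thus lay closer to the controls. Genes spread more in the knockout group, with a median SD of 0.193, than in the control group, with 0.146. Of the hepatocyte markers, albumin (Alb) was brightest, at 13.4 ± 0.07 in the knockout and 13.36 ± 0.05 in the control group (SD). Ass1 was the lowest of them, at 4.53 to 5.30 over all arrays. Prkg1 lay at 3.04 to 3.31 in the knockout and 2.95 to 3.32 in the control arrays, near the median of the table (3.14), and where its probe set lies relative to the deleted part was not determined, so this value does not check the labels.

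C6 and C9 are terminal pathway genes with differences of -2.03 and -0.19, although C8a, C8b and C8g differed less than C9. The promoters of C6 and C9 are shown for that contrast, and those of C1qb and C1qc because these neighbouring genes lay higher together in the knockout. Each is the 250 bases before the start site in the RefSeq table of build GRCm38.p6, at chr4:136886201-136886450 on the minus strand for C1qb, chr4:136892915-136893164 on the minus strand for C1qc, chr15:4726960-4727209 on the plus strand for C6 and chr15:6445096-6445345 on the plus strand for C9. Capitals mark matches on either strand to a letter pattern of STAT3 (TTCNNNGAA), NF-kB (GGANTTTCC), C/EBP (TTGCNNAA) or PU.1 (GAGGAAG), factors of the acute phase response and of macrophages.
C1qb: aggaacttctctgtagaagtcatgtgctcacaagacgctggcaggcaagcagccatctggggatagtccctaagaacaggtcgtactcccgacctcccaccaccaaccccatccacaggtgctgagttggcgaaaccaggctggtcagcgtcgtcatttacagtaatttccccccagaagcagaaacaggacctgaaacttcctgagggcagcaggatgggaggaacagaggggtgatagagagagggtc
C1qc: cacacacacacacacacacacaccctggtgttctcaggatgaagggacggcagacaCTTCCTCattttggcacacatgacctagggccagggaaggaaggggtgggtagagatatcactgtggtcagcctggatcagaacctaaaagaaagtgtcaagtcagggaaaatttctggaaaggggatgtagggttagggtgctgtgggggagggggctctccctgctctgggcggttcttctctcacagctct
C6: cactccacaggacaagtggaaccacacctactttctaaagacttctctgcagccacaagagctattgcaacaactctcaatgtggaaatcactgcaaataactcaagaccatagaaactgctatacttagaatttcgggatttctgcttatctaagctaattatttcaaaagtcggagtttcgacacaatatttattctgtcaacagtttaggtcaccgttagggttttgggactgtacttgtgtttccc
C9: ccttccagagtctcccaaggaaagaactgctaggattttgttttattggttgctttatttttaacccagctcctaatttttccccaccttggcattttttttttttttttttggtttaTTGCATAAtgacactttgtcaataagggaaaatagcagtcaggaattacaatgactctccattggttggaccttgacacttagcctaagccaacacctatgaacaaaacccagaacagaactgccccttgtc

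The PU.1 pattern was found in C1qc and the C/EBP pattern in C9. The C1qb and C6 sequences held none of the 4 patterns. Promoters were in the table for 25 of the measured genes. Of these, 0 held the NF-kB pattern, against 1.07% of all 32851 promoters in the table. This pattern replaced a looser one, searched earlier, which had matched in C1qb and C1qc among others. Each of the other patterns was found in 2 of the 25, namely STAT3 in C8a and Colec11, against 7.02% of all promoters, C/EBP in C1rl and C9, against 9.56%, and PU.1 in C1qc and Fcna, against 10.6%. A match describes the letters only.

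No complement gene passed an adjusted p of 0.05 in limma with Benjamini-Hochberg adjustment over all genes, where 0.0% of all genes passed. The smallest adjusted p among the 35 genes was 0.215, for C4b. At an unadjusted p under 0.05, 11 of 35 lay higher in the knockout (31.4%), against 5.06% of all genes, and 1, C6, lay lower (2.86%), against 5.46% of all genes. The 11 were C1qa, C1qb, C1qc, Cfp, C3ar1, Itgb2, C4b, C4bp, Cfi, Serping1 and Masp1. Without control replicate 2 the count at this threshold was 7 (6 higher, 1 lower) in place of 12. All 3 knockout arrays lay above all 3 control arrays in 16 of 35 genes, against 7.61% of all genes, and below them in 2, C6 and C5ar1, against 9.14%. Among the 13492 genes brighter than the median of the table in at least 1 group, the shares were 4.91% and 7.92% at an unadjusted p under 0.05, higher and lower, and 7.49% and 13.1% for arrays that do not overlap. Differences were positive in 28 of 35 genes, with a median of 0.18, and the median over all genes was 0.00.

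**Figure D1:**
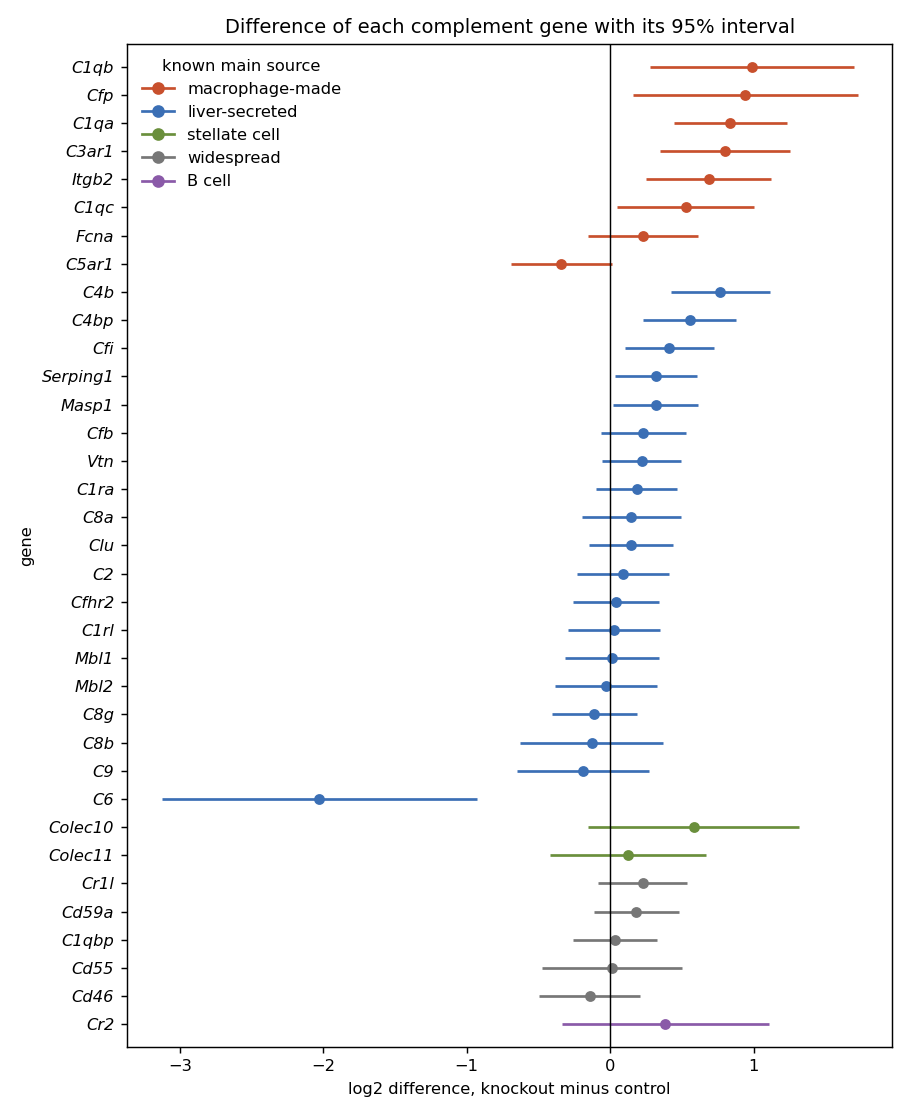
Log2 difference, knockout minus control, of each of the 35 measured complement genes (points) with its 95% interval from limma (bars), coloured by the known main source of the protein. The macrophage-made C1qb and Cfp and the liver-secreted C4b lie to the right, and C6, at -2.03, lies far to the left of all others.

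C1q, the recognition molecule of the classical pathway, is built from the chains encoded by C1qa, C1qb and C1qc, which lie next to each other on chromosome 4. All 3 chains lay higher in the knockout. C1qa lay at 6.42, 6.89 and 6.26 in knockout replicates 1 to 3 and at 5.76, 5.67 and 5.63 in control replicates 1 to 3. The groups did not overlap, and the difference was 0.84 (SE 0.17), a 1.79-fold ratio with a 95% interval of 1.36 to 2.34 (limma unadjusted p = 0.000871, adjusted p = 0.221). C1qb lay at 7.62, 8.55 and 7.06 in the knockout and at 6.67, 6.94 and 6.66 in the control arrays. Its difference was 0.99 (SE 0.32, adjusted p = 0.347), the highest of the 35, and 0.58 without knockout replicate 2. C1qc lay at 5.60, 6.19 and 5.29 in the knockout, the last just above the highest control array, at 5.26. Its difference was 0.53 (SE 0.21, adjusted p = 0.429) and was 0.28 without knockout replicate 2. In all 3 chains knockout replicate 2 was highest and knockout replicate 3 the lowest of the knockout arrays.

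Of the soluble lectins that start the lectin pathway, Mbl1 and Mbl2, encoding the mannose-binding lectins secreted by hepatocytes, had differences of 0.01 (95% interval -0.32 to 0.34) and -0.03 (-0.39 to 0.33), with overlapping groups. Fcna, encoding ficolin A, which is made by macrophages, lay at 6.08, 6.62 and 6.04 in the knockout and at 5.98, 6.05 and 6.03 in the control arrays, so that knockout replicate 2 alone stood clear of the controls. Its difference was 0.23 (SE 0.17, adjusted p = 0.667) and 0.04 without that array. Colec10 and Colec11 encode collectins that in the liver are known from stellate cells. Colec10 lay at 4.66, 6.06 and 5.21 in the knockout and at 5.14, 4.59 and 4.46 in the control arrays, a difference of 0.58 (SE 0.32, 95% interval -0.15 to 1.31, adjusted p = 0.562) with overlapping groups, which was 0.21 without knockout replicate 2 and 0.91 without knockout replicate 1. Colec11 differed by 0.13 (SE 0.24), and by -0.15 without knockout replicate 2. Stellate cell markers also lay highest on that array, with a mean deviation from the control mean of 0.61 over 12 markers, against 0.07 and 0.11 on knockout replicates 1 and 3 and -0.07 to 0.13 on the control arrays. Of these 12 markers, 2 lay higher at an unadjusted p under 0.05 and 0 lower, against 5.06% and 5.46% of all genes. Of the same markers, 0 were dim in both groups, and their summed linear level was 973 to 1842 in the knockout and 866 to 1046 in the control arrays. Their part in the collectin values was not tested.

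Of the proteases that act directly after recognition, Masp1, encoding a serine protease bound to the lectins, lay at 8.26, 8.37 and 8.55 in the knockout and at 8.04, 8.10 and 8.09 in the control arrays. The groups did not overlap, and the difference was 0.32 (SE 0.13, adjusted p = 0.439). C1ra, encoding the C1r protease of the C1 complex, differed by 0.18 (SE 0.13, adjusted p = 0.643), again without overlap. Its neighbour C1rl, encoding a C1r-like protease, differed by 0.03 with overlapping groups. The mouse has further, near-identical C1r and C1s genes, so single values of C1ra are uncertain.

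C4b, encoding the C4 component that is cleaved to form the classical convertase, had the smallest p of the 35 genes under the main settings. It lay at 10.54, 10.80 and 10.32 in the knockout and at 9.81, 9.68 and 9.88 in the control arrays. The groups did not overlap, and the difference was 0.77 (SE 0.15), a 1.70-fold ratio with a 95% interval of 1.34 to 2.16 (limma unadjusted p = 0.000688, adjusted p = 0.215). With any single array left out the difference lay between 0.65 and 0.88. C4a, a near-identical gene, lay at 3.14 to 3.97 in the knockout and 2.87 to 3.17 in the control arrays, and probes of the genes may cross-hybridise. Cfb, encoding factor B of the alternative pathway convertase, lay at 9.86, 9.99 and 9.88 in the knockout and at 9.82, 9.55 and 9.67 in the control arrays, a difference of 0.23 (SE 0.13, adjusted p = 0.567) without overlap. C2, next to Cfb on chromosome 17 and encoding the protease subunit of the classical convertase, differed by 0.09 (95% interval -0.23 to 0.41) with overlapping groups. Properdin, encoded by Cfp and released by myeloid cells, stabilises the alternative convertase. Cfp lay at 6.27, 7.59 and 6.06 in the knockout and at 5.88, 5.47 and 5.75 in the control arrays, a difference of 0.94 (SE 0.35, adjusted p = 0.398) that was 0.47 without knockout replicate 2.

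**Figure D2:**
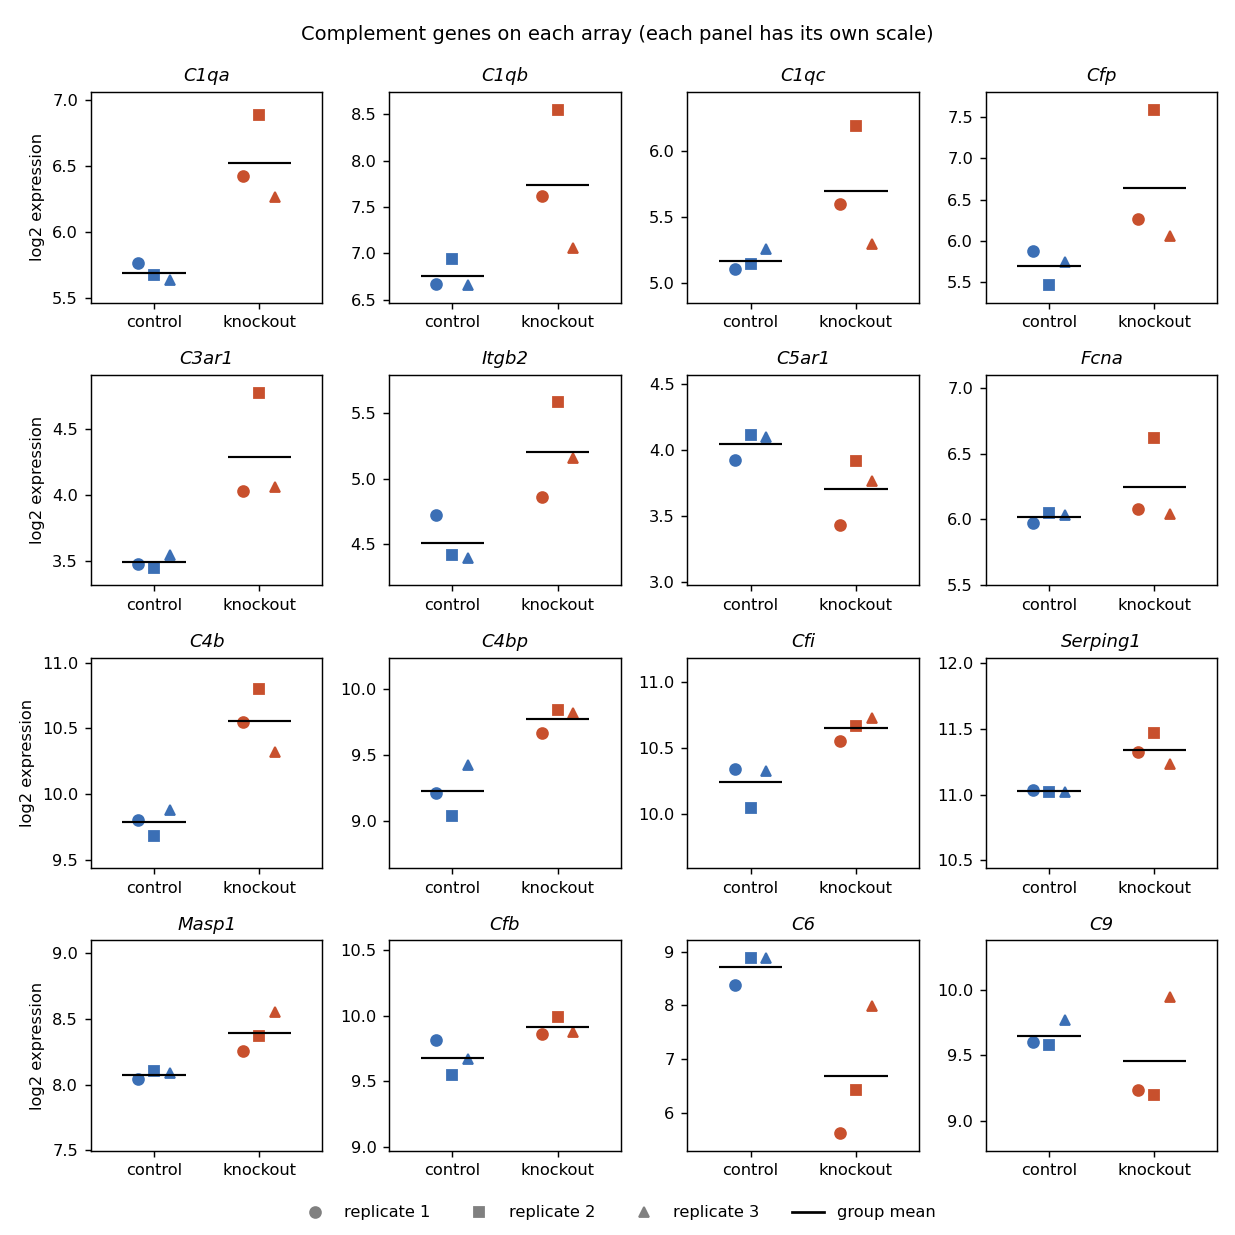
Log2 expression of 16 complement genes on each array, with control arrays in blue, knockout arrays in red, a symbol for each replicate number and the group mean as a line. Knockout replicate 2 is highest in the macrophage-made genes C1qa, C1qb, C1qc, Cfp, C3ar1 and Itgb2, while C4bp, Cfi and Serping1 are separated with little spread, and C6 lies at 8.37 to 8.88 in the controls and at 5.62, 6.43 and 7.99 in the knockout.

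Among the terminal components, C6 stood apart. C6 encodes the protein that joins the initial C5b fragment in the pore, and its level is known to be higher in male than in female mice. It lay at 5.62, 6.43 and 7.99 in knockout replicates 1 to 3 and at 8.37, 8.87 and 8.88 in control replicates 1 to 3. The groups did not overlap, but knockout replicate 3 lay closer to the nearest control array than to the other knockout arrays. The difference was -2.03 (SE 0.49, 95% interval -3.13 to -0.93), with the knockout 4.08-fold lower (limma unadjusted p = 0.00233, adjusted p = 0.248). Without knockout replicate 3 the difference was -2.68 and passed the threshold (limma adjusted p = 0.00761), with 2 knockout arrays against 3 controls. Over all 13 alternatives the adjusted p ranged from 0.00761 to 0.69.

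The other terminal genes did not show a difference of that size. C9, encoding the subunit that polymerises into the pore, lay at 9.23, 9.20 and 9.95 in the knockout and at 9.60, 9.58 and 9.77 in the control arrays. Its difference was -0.19 (SE 0.20, 95% interval -0.65 to 0.27, adjusted p = 0.776) and -0.43 without knockout replicate 3. Knockout replicates 1 and 2 were thus below the controls and knockout replicate 3 above them. C8b also had knockout replicates 1 and 2 below and knockout replicate 3 above the controls, at 9.75, 9.64 and 10.49 in the knockout and 9.96, 10.05 and 10.27 in the control arrays, with a difference of -0.13 (SE 0.22). C8a, its neighbour on chromosome 4, differed by 0.15 (SE 0.15) and C8g by -0.11 (SE 0.13), both with overlapping groups. C8a, C8b and C8g encode the chains of the C8 component. Of the terminal genes outside the list, Hc, encoding C5, differed by 0.26 (SE 0.14, adjusted p = 0.532) and C7 by -0.29 (SE 0.26, adjusted p = 0.724).

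The plasma regulators had positive differences in 6 of 6 genes, with a median of 0.27, and in 4 of the 6 the knockout arrays lay above all control arrays, against 7.61% of all genes. C4bp encodes the C4b-binding protein, which speeds the decay of the classical convertase. It lay at 9.66, 9.84 and 9.82 in the knockout and at 9.21, 9.03 and 9.42 in the control arrays, a difference of 0.55 (SE 0.14, adjusted p = 0.279) or 1.47-fold. Cfi, encoding the protease factor I that cuts C3b and C4b, lay at 10.56, 10.67 and 10.73 in the knockout and at 10.34, 10.05 and 10.33 in the control arrays, a difference of 0.41 (SE 0.14, adjusted p = 0.363). Serping1, encoding the C1 inhibitor, lay at 11.32, 11.47 and 11.24 against 11.04, 11.02 and 11.02, a difference of 0.32 (SE 0.13, adjusted p = 0.426). These genes were separated on all 3 knockout arrays, and knockout replicate 2 did not stand out in Cfi and C4bp. Vtn, encoding vitronectin, which blocks pore insertion, differed by 0.22 (SE 0.12) without overlap. Clu, encoding clusterin with a like role, differed by 0.14 (SE 0.13), and the factor H-related gene Cfhr2 by 0.04 (SE 0.13), both with overlap. Vtn, Clu and Cfhr2 had adjusted p-values of 0.562, 0.732 and 0.933.

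Regulators on cell surfaces, which protect the body's own cells, had differences from -0.14 to 0.23. Of these, 0 of 4 reached an unadjusted p under 0.05, against 10.5% of all genes. Cr1l, encoding the rodent convertase inhibitor Crry, lay at 5.69, 5.93 and 5.58 in the knockout and at 5.55, 5.47 and 5.50 in the control arrays, a difference of 0.23 (SE 0.14, adjusted p = 0.592). Cd59a, encoding an inhibitor of pore assembly, differed by 0.18 (SE 0.13), also without overlap. That separation was narrow, with the lowest knockout array at 8.288 and the highest control array at 8.283. Cd55, encoding decay-accelerating factor, differed by 0.01 with knockout arrays from 4.34 to 5.27 on both sides of the controls (4.78 to 4.89). Cd46 lay below the median of the table in both groups, so its difference of -0.14 is uncertain. C1qbp, encoding a mitochondrial protein that also binds C1q, differed by 0.03 (95% interval -0.26 to 0.33).

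Receptors for complement fragments had differences of both signs. C3ar1, encoding the receptor for C3a, lay at 4.03, 4.78 and 4.06 in the knockout and at 3.48, 3.45 and 3.55 in the control arrays, a difference of 0.80 (SE 0.20, adjusted p = 0.264) or 1.74-fold. C5ar1, encoding the receptor for C5a, lay at 3.43, 3.92 and 3.76 in the knockout and at 3.92, 4.11 and 4.10 in the control arrays, a difference of -0.34 (SE 0.16, 95% interval -0.69 to 0.01, adjusted p = 0.486). The groups did not overlap in either gene, although knockout replicate 2 and control replicate 1 were nearly equal for C5ar1. C5ar2, encoding a second C5a receptor, differed by 0.10 (SE 0.17). Itgb2, encoding the integrin chain shared by the receptors for inactivated C3b, lay at 4.86, 5.58 and 5.16 against 4.72, 4.42 and 4.40, a difference of 0.69 (SE 0.19, adjusted p = 0.306). The genes of the partner chains, which are outside the list, did not show a difference of that size. Itgam was dim in both groups and differed by 0.02 (SE 0.19), and Itgax differed by 0.15 (SE 0.13), both with overlapping groups. Cr2, the complement receptor of B cells, was dim on all arrays but knockout replicate 1, at 3.18 against 1.80 to 1.99 on the other 5 arrays, so its difference of 0.38 rests on that array and was -0.06 without it.

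**Figure D3:**
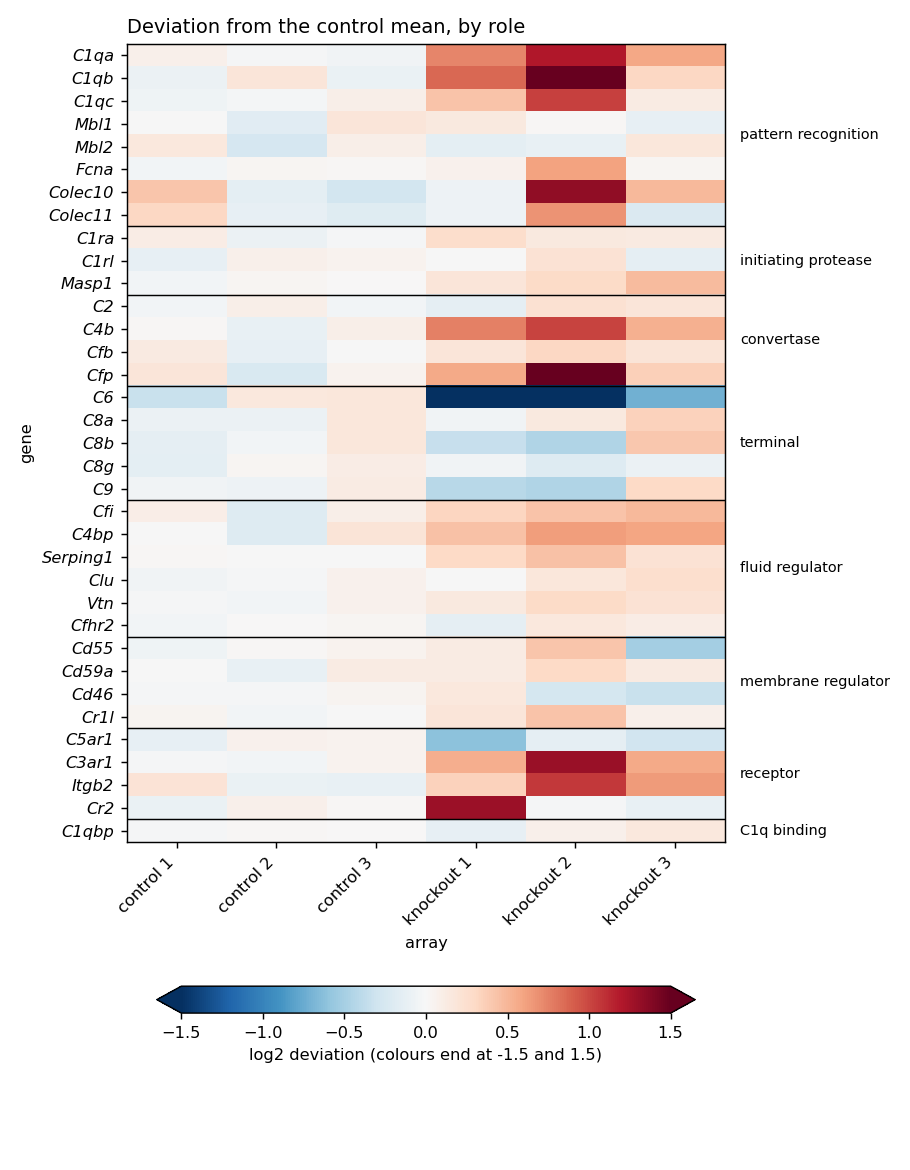
Deviation of each of the 35 complement genes (rows, grouped by role) from its control mean on each of the 6 arrays (columns), in log2 units, with red above and blue below the control mean and colours ending at -1.5 and 1.5. Knockout replicate 2 is reddest in the C1q chains, Cfp, Colec10, C3ar1, Itgb2 and C4b. The C6 cells of knockout replicates 1 and 2 are the darkest blue, and C8b and C9 are blue in knockout replicates 1 and 2 and red in knockout replicate 3.

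By source, 6 of 8 macrophage-made genes lay higher at an unadjusted p under 0.05 and 0 lower, against 5.06% and 5.46% of all genes, with a median difference of 0.74 (1.67-fold). Of 19 liver-secreted genes, 5 lay higher and 1 lower, with a median of 0.14 (1.10-fold). Of the 8 others, 0 reached that level. Groups did not overlap in 7 of 8 macrophage-made genes, 6 above and 1 below, and in 9 of 19 liver-secreted genes, 8 above and 1 below, against 7.61% of all genes above and 9.14% below. The median of the macrophage-made genes was 0.48 without knockout replicate 2, and that of the liver-secreted genes was 0.09 without knockout replicate 3. No test of the difference between the sources was made.

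The mean deviation of the 8 macrophage-made genes from their control means was 0.37, 1.09 and 0.29 on knockout replicates 1 to 3, and -0.02 to 0.02 on the control arrays. Knockout replicate 2 was the highest of all 6 arrays in 7 of 8, the exception being C5ar1. The liver-secreted genes without C6 deviated by 0.08, 0.18 and 0.24 on knockout replicates 1 to 3 and by -0.06 to 0.08 on the control arrays, so the smallest knockout value was just above the highest control value. With C6 the values were -0.09, 0.05 and 0.19, overlapping the controls (-0.05 to 0.08). Knockout replicate 2 was highest in 8 and knockout replicate 3 in 7 of the 19 genes.

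**Figure D4:**
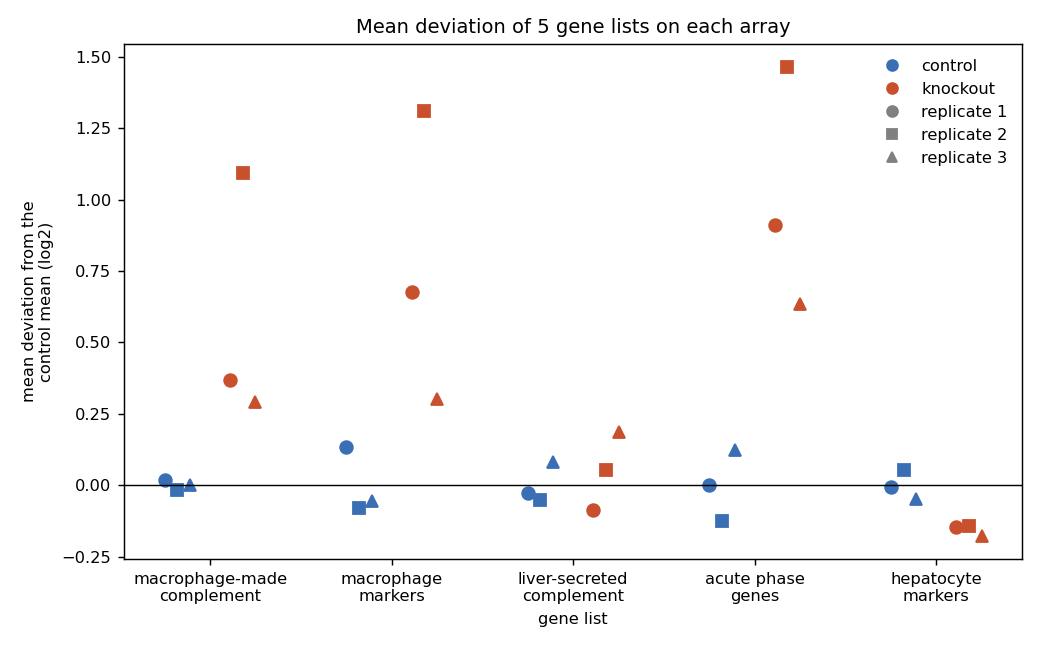
Mean deviation from the control mean, in log2 units, of 5 gene lists on each array, with control arrays in blue, knockout arrays in red and a symbol for each replicate number. Macrophage-made complement genes (8) and macrophage markers (17) show knockout replicate 2 far above the others, at 1.09 and 1.31, while the 19 liver-secreted complement genes stay between -0.09 and 0.19.

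Macrophage markers that are not complement genes also lay higher in the knockout. Of 17 such markers, leaving out the complement receptor gene Vsig4, 14 lay higher at an unadjusted p under 0.05 and 0 lower, against 5.06% and 5.46% of all genes, with a median of 0.74. Their mean deviation was 0.68, 1.31 and 0.30 on knockout replicates 1 to 3 and -0.08 to 0.14 on the control arrays, the same order of arrays as in the macrophage-made complement genes. The summed linear level of these markers was 1045 to 2407 in the knockout and 768 to 861 in the control arrays. The Kupffer cell gene Clec4f differed by 0.84 (SE 0.31), Cd5l by 2.64-fold (SE 0.36 on the log2 scale), the cathepsin gene Ctss by 1.14 (SE 0.33) and Csf1r, the receptor that macrophages need for survival, by 0.78 (SE 0.28), with adjusted p-values of 0.272 to 0.402. Only Cd14 of the marker list was dim in both groups. The part of the markers in the complement values was not tested, and in whole liver more cells of a type and more RNA per cell cannot be told apart. Endothelial markers were also highest on knockout replicate 2, with a mean deviation of 0.73 over 8 genes against 0.10 and 0.11 on the other knockout arrays.

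At an unadjusted p under 0.05, 3 of 12 neutrophil, 3 of 7 B cell and 1 of 9 T and NK cell markers lay higher and 0 lower, against 5.06% and 5.46% of all genes. Of 12 neutrophil markers 8 were dim in both groups, among them S100a8 and S100a9, and their summed linear level was 86.9 to 95.1 in the knockout and 80.5 to 80.6 in the control arrays. Of 7 B cell markers 4 and of 9 T and NK cell markers 5 were dim in both groups. The summed level was 194 to 250 against 167 to 185 for B cell markers and 89.1 to 97.0 against 79.8 to 87.0 for T and NK cell markers. The B cell sum mainly follows Ighm, the brightest of those markers, at 7.27, 7.64 and 7.50 in the knockout and 7.17, 6.96 and 7.16 in the control arrays. Cd22 differed by 0.51, Cd79a by 0.11 and Cd79b by -0.14. Adipose markers were listed because fat cells make much complement factor D, and 3 of 6, among them Adipoq, were dim in both groups. The lipid droplet gene Cidec was lower by a log2 difference of -1.22 (SE 0.47, limma adjusted p = 0.413), the only 1 of 6 at an unadjusted p under 0.05. The summed level of the adipose markers overlapped between the groups (665 to 1819 against 668 to 1881). That sum mainly follows Car3, the brightest of them, at 10.79, 9.24 and 10.80 in the knockout and 10.47, 9.13 and 10.83 in the control arrays.

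Acute phase genes, which hepatocytes transcribe more under inflammatory cytokines, lay higher in the same arrays. Of 20 measured genes, 14 lay higher at an unadjusted p under 0.05 and 0 lower, against 5.06% and 5.46% of all genes, with a median of 0.53, and 0 passed adjustment. Their mean deviation was 0.91, 1.46 and 0.64 on knockout replicates 1 to 3 and -0.12 to 0.12 on the control arrays, and the summed linear level was 33070 to 51102 in the knockout and 23588 to 24695 in the control arrays. Examples are the fibrinogen genes Fgb (0.43, SE 0.15) and Fgg (0.52, SE 0.15), the haptoglobin gene Hp (0.39, SE 0.16) and the hemopexin gene Hpx (0.53, SE 0.13). The largest differences were those of Saa2 (3.91, SE 0.86), Lcn2 (3.70, SE 0.44) and Orm2 (3.46, SE 0.57), which raise the mean deviation. The median deviation was 0.46, 0.76 and 0.39 on knockout replicates 1 to 3. Crp, A2m, Cd14, Cp and Saa3 differed by only 0.01, 0.02, -0.07, 0.12 and -0.13. A2m and Cd14 were dim in both groups. Of the liver-secreted complement genes, C4b and C4bp had differences above the acute phase median of 0.53. The part of the acute phase genes in these values was not tested. The 13 hepatocyte markers had a median of -0.16, with 4 lower and 0 higher at an unadjusted p under 0.05, against 5.46% and 5.06% of all genes. The 4 were Fabp1 (-0.56), Tat (-0.38), Pck1 (-0.36) and Hnf4a (-0.36).

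Further genes of the pathway were read from a list of 27 symbols, in which Gpr77 and Daf2 are older names of C5ar2 and Cd55b. Of these, 22 were measured, and 0 passed an adjusted p of 0.05 in limma. At an unadjusted p under 0.05, 4 lay higher, Apcs, Vsig4, C1s1 and C4a, and 1, Susd4, lay lower, against 5.06% and 5.46% of all genes. The median difference was 0.17, close to that of the 35 genes. Apcs encodes serum amyloid P, a pentraxin that can bind C1q, and lay at 8.04, 8.74 and 7.97 in the knockout and at 6.30, 5.77 and 6.28 in the control arrays. It is also on the acute phase list above, so it is counted in both lists. Its difference was 2.14 (SE 0.23, adjusted p = 0.0613), and the adjusted p was 0.0123 without knockout replicate 3 (range over 13 alternatives 0.0123 to 0.324). Vsig4, encoding the receptor by which Kupffer cells capture C3b-coated particles, lay at 6.80, 7.77 and 6.44 against 6.29, 5.75 and 5.88, a difference of 1.03 (SE 0.31, adjusted p = 0.326). C1s1, encoding the C1s protease, differed by 0.39 (SE 0.14, adjusted p = 0.372) without overlap. Susd4, encoding a membrane inhibitor of complement, lay at 5.16, 4.79 and 5.64 in the knockout and at 5.70, 5.98 and 6.06 in the control arrays, a difference of -0.71 (SE 0.21, adjusted p = 0.326).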

How the data were processed

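Total liver RNA (100 ng per sample) was measured on 6 arrays. The submitters' processing notes name RMA and version 1.4.1 of Affymetrix Expression Console. The deposited table holds the log2 expression values that the authors made in this way for 41345 probe sets. RMA sets arrays to a common distribution, so a shift of most genes in 1 direction would not show. No genome build of the array is named in these sources.

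Probe sets with exactly 1 gene symbol in the platform annotation (23521) were kept, and the brightest was used for a gene with several, which left 22180 genes. No dim filter was applied. Groups were compared with limma 3.58.1 (lmFit, then eBayes) under R 4.3.3 (statmod 1.5.0 for the robust fit), with 2-sided p-values adjusted by Benjamini-Hochberg over all genes. The fit was tested on simulated data. No pair of arrays was identical (0 pairs). Counts at an unadjusted p under 0.05, non-overlap counts and medians are descriptions. "Dim" means both group means at or below 3.14, the median of the table.

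The genes, their sources and the other lists came from general knowledge, with earlier results of these data known. All 35 complement genes are named. Outside them, the pathway genes at an unadjusted p under 0.05 and the 4 brightest markers of a list could be named. C5ar2, Hc, C7, Itgam, Itgax, S100a8, S100a9, Cd14, Adipoq, Cidec, Ass1, Fabp1, Tat, Pck1 and Hnf4a were named for their role, level or to account for a count, after their values were seen. Saa2, Lcn2, Orm2, Crp, A2m, Cp and Saa3 were named for the size of their differences. Alternatives changed the variance prior, normalization, dim filter, probe set rule and block, and left out each array.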

Additional observations from a re-analysis of the deposited data

How the results depend on the processing

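With any single array left out, 0 to 1 complement genes passed an adjusted p of 0.05, the 1 being C6 without knockout replicate 3, and 7 to 13 lay at an unadjusted p under 0.05. None passed under the other 7 alternatives. The groups did not overlap in 16 complement genes (15 above, 1 below) with arrays centred on their medians. After quantile normalization the count was 17 (15 above, 2 below), in place of 18 (16 above, 2 below). Of the other pathway genes 0 to 1 passed with an array left out, and 1, Apcs, passed when the variance prior followed intensity and with the dim filter. All 12 genes at an unadjusted p under 0.05 kept their sign in all 13 alternatives, which was largely fixed in advance. Their groups did not overlap, so leaving out any single array could not turn the sign. The changed variance priors, dim filter, probe set rule and block left these differences as they were. Of the other 23, 14 kept their sign in every alternative that measured them (12 for Cd46, which the dim filter removed). The sign turned in at least 1 alternative in 9 genes. With an array left out, the difference ranged from -0.0268 to 0.115 for C1qbp, -0.0696 to 0.107 for C1rl, -0.395 to 0.0296 for C8b, -0.189 to 0.274 for Cd55, -0.0119 to 0.135 for Cfhr2, -0.149 to 0.30 for Colec11, -0.0637 to 0.63 for Cr2, -0.0733 to 0.104 for Mbl1 and -0.152 to 0.0489 for Mbl2, which was 0.0270 after quantile normalization. These values have no stable direction at 3 arrays per group.

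Replicate numbers paired the arrays weakly at most. Deviations of same-numbered arrays correlated at 0.0064, 0.053 and 0.015 over genes, and those of differently numbered arrays at -0.046 to 0.029. Knockout replicates 1 and 2 correlated best with their own number, and knockout replicate 3 better with control replicate 1 (0.029). With the replicate block, 0 complement genes passed and 11 lay at an unadjusted p under 0.05 (9 higher, 2 lower). Overlap of groups was not counted under the block. The number of arrays and the dim signal of Cd46 and Cr2 limit what can be seen.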
